A study of Ovis aries with 9 samples.

Results

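The data described here are the RNA levels of 7 genes of the cholesterol synthesis pathway, HMGCS1, IDI1, FDPS, FDFT1, SQLE, LSS and DHCR7, in hypothalamus of Dolang sheep around puberty. They were taken by gene symbol: the values of all 18 of their annotated protein-coding transcripts were summed per gene, out of 21284 genes handled in the same way, and all 7 genes were among the 14238 that passed the filter for testing (a mean of at least 0.5 FPKM in at least 1 stage). In FPKM the fragments counted on a transcript are divided by transcript length and sequencing depth, so that levels can be set side by side between genes. All 7 are enzymes of synthesis, so the receptors and carriers of cholesterol uptake are given beside them as separate lists. Poly-A RNA, captured from total RNA of the hypothalamus, was sequenced from 9 ewes, with 3 libraries each for prepuberty, puberty and postpuberty, and each library is named here by its stage and replicate number. The prepuberty ewes were 120 or 121 days old, the puberty ewes 130 or 131 days and the postpuberty ewes 150 or 151 days. The puberty ewes were taken when estrus was first seen, and all ewes were healthy and kept at the same station, so that stage and age cannot be told apart. Differences between stages rest on 3 ewes each, and 3 libraries against 3 cannot give an exact two-sided p below 0.1.

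Cholesterol is built from acetyl units along the mevalonate pathway, which leads over isoprenoid intermediates to squalene and then, once squalene has closed into a ring, to the sterols. The brain makes its own cholesterol, since lipoproteins of the blood hardly pass the blood-brain barrier, and much of it is laid down in myelin. Most enzymes of the pathway are under the control of the transcription factor SREBP-2, which is set free when sterols in the endoplasmic reticulum run low.

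Puberty 2 stood apart from the other 8 libraries before any comparison of stages was made. Its values summed to 599726 FPKM over all transcripts, against 359588 to 398109 in the others, and it had 15577 genes above 0, against 17180 to 17763. Its median Spearman correlation with the other libraries over genes was 0.714, and the same median lay between 0.898 and 0.927 for each of the others. In Puberty 2, 32 genes were listed at 0 that had at least 10 FPKM in all other libraries, and no other library had such a gene. The stage comparisons, the agreement among the 7 genes and the relations to other genes are therefore given with and without this library. The labelled tissue was checked with 14 genes known from hypothalamic neurons. 7 of them stayed below 1 FPKM in all 9 libraries (AGRP, PMCH, GHRH, GNRH1, KISS1, NKX2-1 and SIM1), GNRH1 being listed at 0 throughout, while the sum of the list ranged from 37.4 to 143.7 FPKM at prepuberty, from 60.6 to 83.6 at puberty and from 28.0 to 158.8 at postpuberty.

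HMGCS1 (chr16:31544055-31566693 in the ARS-UI_Ramb_v3.0 assembly) is the synthase that makes hydroxymethylglutaryl-CoA at the head of the mevalonate pathway. Its level was 125.7, 69.3 and 69.6 FPKM in Prepuberty 1 to 3, 94.8, 0.40 and 110.9 FPKM in Puberty 1 to 3, and 82.0, 63.8 and 85.3 FPKM in Postpuberty 1 to 3. Prepuberty 1 was the highest library, and Puberty 2 lay far below all others at 0.00478 of the median of the other 8. In the other 8 libraries, 64.9% to 82.4% of the HMGCS1 level came from 1 transcript model, XM_004017011.6. That model and the next one, XM_012096967.5, were both listed at 0 in Puberty 2, and the 0.40 FPKM left there belonged to a minor model that stayed between 0.19 and 1.68 FPKM elsewhere.

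IDI1 (chr13:45915660-45922746) interconverts the pair of C-5 isoprenoid units from which all longer chains are made. It stood at 17.9, 14.3 and 15.0 FPKM in the prepuberty libraries, 14.3, 11.4 and 16.9 FPKM in the puberty libraries, and 13.0, 9.31 and 15.4 FPKM in the postpuberty libraries. The stages overlapped, with Prepuberty 1 highest and Postpuberty 2 lowest. In Puberty 2, 8.67 of the 11.4 FPKM came from XM_060397583.1, a transcript model listed at 0 in all other libraries. The model that carried 84.7% to 100% of IDI1 elsewhere stood at 2.75 FPKM in that library.

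FDPS (chr1:105484970-105494154) makes farnesyl diphosphate, where the sterol branch parts from ubiquinone, dolichol and protein prenylation. FDPS measured 41.7, 25.1 and 27.8 FPKM at prepuberty, 26.9, 31.9 and 30.6 FPKM at puberty, and 17.2, 26.7 and 34.2 FPKM at postpuberty. The lowest and the second highest of the 9 values both came from postpuberty ewes, so this stage spanned most of the range of the gene. Puberty 2 was not low for FDPS, but its 31.9 FPKM was made up differently: XM_004002588.6 gave 63.9% of it, against 13.3% to 46.3% in the other libraries.

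FDFT1 (chr2:105554794-105586621) is squalene synthase, the enzyme that joins a pair of farnesyl diphosphates and thereby the first step that serves sterols alone. Its values were 26.3, 18.5 and 23.4 FPKM at prepuberty, 24.3, 25.7 and 27.4 FPKM at puberty, and 12.9, 20.7 and 27.1 FPKM at postpuberty. The puberty libraries lay close together, while Postpuberty 1 was the lowest of the 9 and Postpuberty 3 nearly as high as the highest. For FDFT1 and FDPS alone, Puberty 2 lay above the median of the other 8 libraries, at 1.08 and 1.17 of it.

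SQLE (chr9:28169561-28191274), squalene epoxidase, adds oxygen to squalene and is held to be a rate-limiting step of the pathway. It had a single transcript model, with 44.1, 32.0 and 37.8 FPKM at prepuberty, 42.7, 22.0 and 38.1 FPKM at puberty, and 29.1, 29.3 and 35.3 FPKM at postpuberty. Puberty 2 was the lowest library, at 0.601 of the median of the others. Among the other 8, all 3 postpuberty libraries lay below both puberty libraries.

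LSS (chr1:266627540-266659557) closes the epoxide into lanosterol, the first sterol. LSS stood at 23.3, 9.83 and 18.7 FPKM at prepuberty, 23.1, 6.13 and 24.0 FPKM at puberty, and 17.1, 13.1 and 17.1 FPKM at postpuberty. Prepuberty 1 and the other 2 puberty libraries formed the upper end, and Puberty 2 was again lowest, with Prepuberty 2 next. LSS had the widest range of the 7 genes over the 8 libraries without Puberty 2, with 2.44 times as much in the highest as in the lowest.

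DHCR7 (chr21:44653001-44675907) carries out the last step of 1 branch, the reduction of 7-dehydrocholesterol to cholesterol. Its level was 9.43, 7.09 and 8.83 FPKM at prepuberty, 7.94, 2.28 and 16.1 FPKM at puberty, and 6.98, 7.81 and 8.90 FPKM at postpuberty. 1 puberty library, Puberty 3, lay well above all others, and Puberty 2 lay below them, so that both ends of the range were set by puberty ewes. Of its 3 transcript models, 2 were listed at 0 in Puberty 2, and the third, which gave at most 24.6% of DHCR7 in the other libraries, gave the whole value there.

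**Figure D1:**
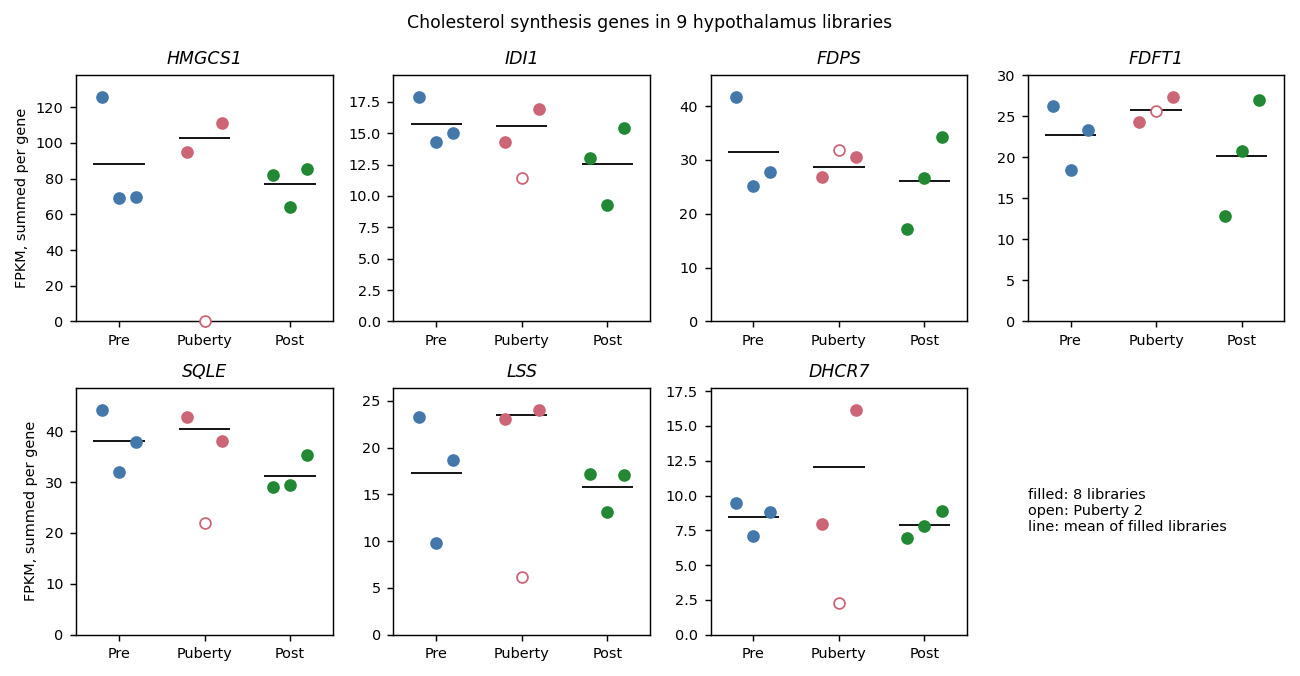
FPKM summed per gene (vertical axes, each from 0) for the 7 cholesterol synthesis genes in 3 prepuberty, 3 puberty and 3 postpuberty libraries; points are libraries, the open point is Puberty 2 and lines are stage means without it. Puberty 2 is the lowest library for HMGCS1, SQLE, LSS and DHCR7, and the stages overlap for every gene when it is kept.

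The genes kept nearly the same order of level from library to library. Over the 8 libraries without Puberty 2, HMGCS1 had a mean of 87.7 FPKM, SQLE of 36.1, FDPS of 28.8, FDFT1 of 22.6, LSS of 18.3, IDI1 of 14.5 and DHCR7 of 9.14. HMGCS1 was the highest and DHCR7 the lowest of the 7 in all 8 libraries. SQLE lay above FDPS and FDPS above FDFT1 in 8 of 8, while FDFT1 over LSS and LSS over IDI1 held in 7 of 8 each. In Puberty 2 this order was broken, with HMGCS1 the lowest of the 7. The 7 genes together came to 288.4, 176.1 and 201.1 FPKM at prepuberty, 234.1, 99.8 and 264.0 FPKM at puberty, and 178.3, 170.8 and 223.2 FPKM at postpuberty.

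The levels of the 7 genes went together from ewe to ewe, also within a stage. Without Puberty 2, Prepuberty 1 was the highest of 8 libraries for 4 genes and Puberty 3 for the other 3, and each of these libraries was among the top 3 for all 7 genes. Prepuberty 2 and Postpuberty 2 were among the bottom 3 for all 7 genes, and Postpuberty 1 was the lowest library for 4 of them. Prepuberty thus held both the library at the top and 1 of those at the bottom, and no postpuberty library was the highest for any of the 7. On the log2(FPKM + 1) scale, the median difference of the 7 genes from their own medians over the 8 libraries was 0.27 in Prepuberty 1, 0.19 in Puberty 3, -0.31 in Postpuberty 2, -0.23 in Postpuberty 1 and -0.21 in Prepuberty 2. The same median over all tested genes lay close to 0 in these libraries (0.0059, 0.037, -0.0016, 0.028 and 0.0026). In Puberty 2 it was -0.71 for the 7 genes and -0.48 for all genes.

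**Figure D2:**
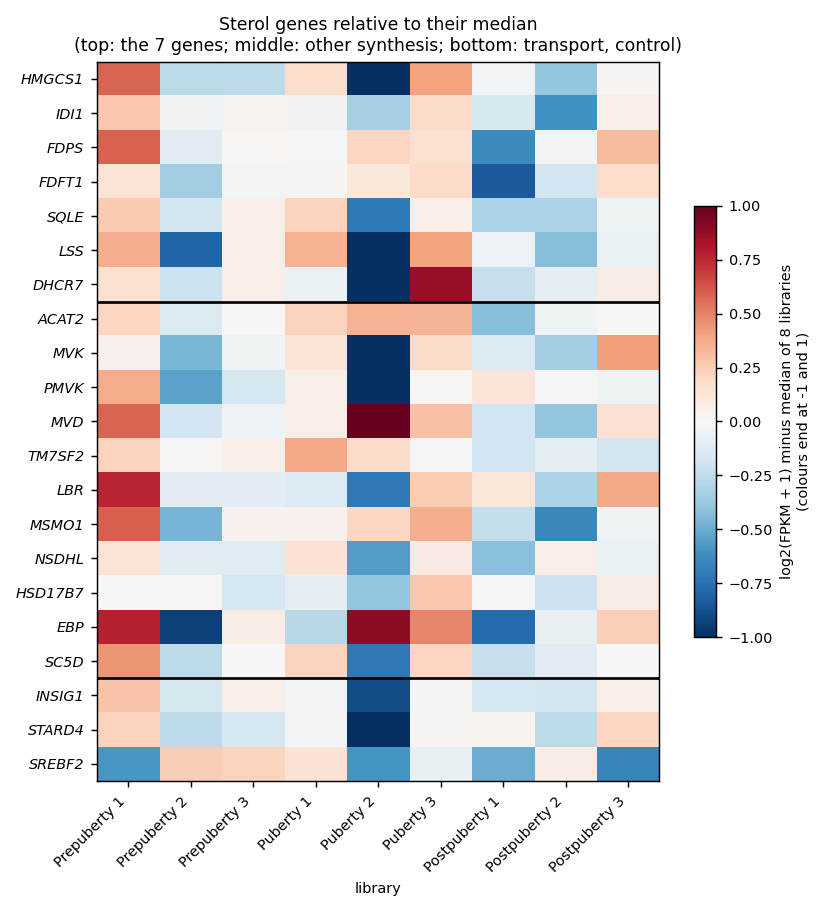
Difference of log2(FPKM + 1) from the median of the 8 libraries without Puberty 2, for the 7 genes (top), 11 of the 13 other tested genes of sterol synthesis (middle; the others are not shown here) and INSIG1, STARD4 and SREBF2 (bottom; examples chosen after their values were seen, not typical of their lists); columns are libraries and colours end at -1 and 1. Prepuberty 1 and Puberty 3 are above the median for all 7 genes, and Prepuberty 2, Postpuberty 1 and Postpuberty 2 are below it for all 7.

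For the 21 pairs of the 7 genes, the median of Pearson's r of log2(FPKM + 1) was 0.59 over the 8 libraries, and r ran from 0.38 (LSS with FDPS) to 0.89 (FDFT1 with FDPS). All 21 were above 0, and 8 of 21 (38.1%) were at least 0.7. Over all pairs of tested genes in the same libraries, the median r was 0.036 and 6.49% of pairs reached 0.7. These correlations are descriptions without a p, since the genes were chosen as a pathway with earlier results of these data known. The points of a pair also share the library and its depth. Spearman's rho for the 21 pairs had a median of 0.76. SQLE was the gene most like the others, with a median r of 0.73 with the other 6, and FDPS the least, with 0.53. FDFT1 and FDPS, enzymes of consecutive steps, had the highest r of all pairs with a rho of 0.88, while rho was highest for DHCR7 with FDFT1, at 0.95. The agreement was also seen within stages: after subtraction of stage means the median r over 8 libraries was 0.54, with all 21 pairs above 0. The lowest r was then 0.16, and 5 of 21 pairs (23.8%) reached 0.7, against 10.9% of all gene pairs. Leaving out each of the 8 libraries in turn gave medians from 0.55 to 0.70 with all 21 above 0.

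With Puberty 2 included, the 7 genes went together less evenly. HMGCS1, SQLE, LSS and DHCR7, which were lowest in that library, correlated with each other at 0.78 to 0.89 over 9 libraries, and FDFT1 correlated with FDPS at 0.90, but HMGCS1 had an r of -0.14 with FDFT1 and -0.09 with FDPS. The median over the 21 pairs was 0.48, with 19 above 0 and 8 (38.1%) at 0.7 or above. For all gene pairs in the 9 libraries the median was 0.13, with 57.0% above 0 and 14.9% at 0.7 or above. Spearman's rho, which weighs a single far value less, had a median of 0.77 over the 9 libraries.

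**Figure D3:**
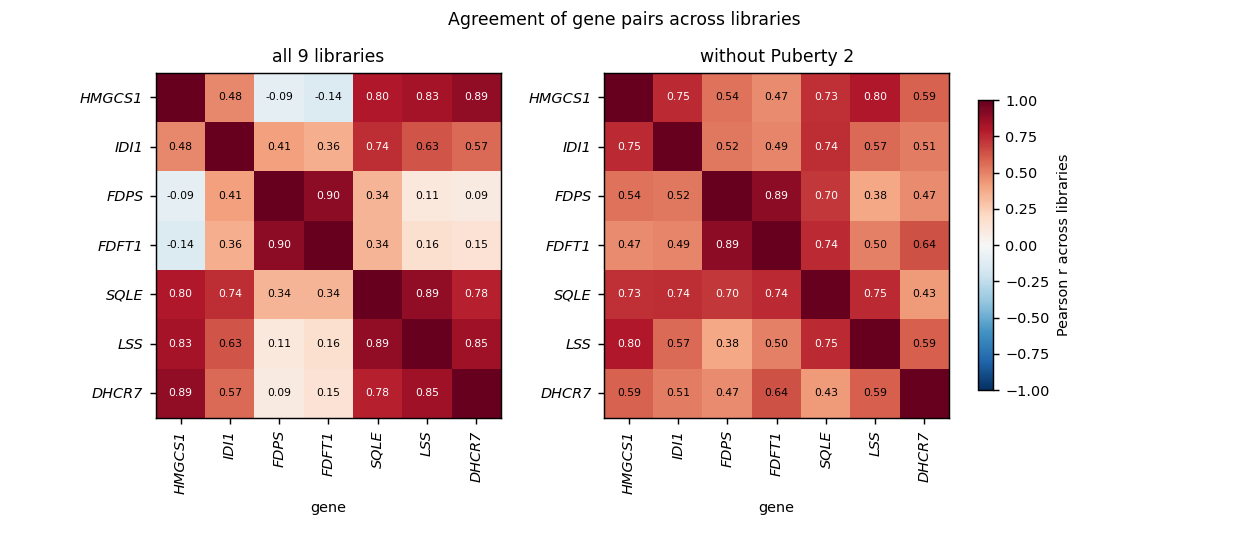
Pearson's r of log2(FPKM + 1) for each pair of the 7 genes across all 9 libraries (left) and across the 8 without Puberty 2 (right); colours and printed numbers both give r. The right panel is above 0 throughout (0.38 to 0.89), while on the left FDPS and FDFT1 fall out of step with HMGCS1 (-0.09 and -0.14).

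The comparison of stages asked whether the 7 genes differ as ewes pass through puberty. limma on log2(FPKM + 1) called none of the 7 genes in any of the 3 contrasts (Benjamini-Hochberg adjusted p below 0.05, with a log2 fold change of 1 or more in size), and it called 0% of all 14238 genes. At an unadjusted p below 0.05, 259 genes (1.82%) passed for puberty against prepuberty, 305 (2.14%) for postpuberty against puberty and 116 (0.815%) for postpuberty against prepuberty, with 0 of the 7 among them. Without Puberty 2, 0 of 14209 genes were called, and the unadjusted shares were 1.66%, 2.11% and 1.87%, again with 0 of the 7 genes. With limma's array weights, which weigh each library by how closely it follows the fitted stage means, 4, 1 and 0 genes were called in the 3 contrasts. None of them was among the 7. The weight was 0.065 for Puberty 2, 8.13 for Prepuberty 3, 0.73 for Prepuberty 1 and 0.54 for Prepuberty 2. The weighted prepuberty mean thus rested largely on Prepuberty 3.

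Between prepuberty and puberty the direction depended on Puberty 2. On the log2(FPKM + 1) scale, 6 of 7 genes were lower at puberty with all 9 libraries, with a median log2 fold change of -0.15, close to the -0.14 of all genes, of which 63.2% were lower. The direction also depended on the scale: by mean FPKM 4 of 7 were lower and 3 were higher, LSS (17.3 to 17.7), DHCR7 (8.45 to 8.78) and FDFT1 (22.7 to 25.8). HMGCS1 had the largest log2 difference, from 88.2 ± 32.4 FPKM (SD, n = 3) to 68.7 ± 59.7 (SD, n = 3), with a log2 fold change of -1.80, a standard error of 1.40 and a limma adjusted p of 0.84. Without Puberty 2, 5 of 7 were higher at puberty and the median was 0.19, against 0.023 for all genes, of which 44.7% were lower. HMGCS1 then had a log2 fold change of 0.27 (standard error 0.29), and the largest was that of LSS, from 17.3 ± 6.84 FPKM (SD, n = 3) to 23.5 ± 0.65 (SD, n = 2), at 0.50 with a 95% interval from -0.26 to 1.27 and a limma adjusted p of 1. The stages overlapped for all 7 genes with and without Puberty 2, while among all genes they did not overlap for 5.16% with 9 libraries and 11.7% with 8.

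At postpuberty the 7 genes were lower than at puberty once Puberty 2 was left out. All 7 log2 fold changes were then below 0, from -0.19 (FDPS) to -0.56 (LSS), with a median of -0.40, against 0.026 for all genes, of which 44.9% were lower. The 7 genes went together across libraries, so they are not 7 independent results, here or in the other stage comparisons. For HMGCS1, SQLE and LSS every postpuberty library lay below both remaining puberty libraries. Among all tested genes 14% had stages that did not overlap in this comparison, and 6.08% had every postpuberty library lower. HMGCS1 went from 102.9 ± 11.4 FPKM (SD, n = 2) to 77.0 ± 11.6 (SD, n = 3), SQLE from 40.4 ± 3.30 to 31.2 ± 3.53, and LSS from 23.5 ± 0.65 to 15.8 ± 2.32 with the same numbers of libraries. None of these differences passed the test: SQLE had the smallest unadjusted p, 0.082, with a log2 fold change of -0.36, a 95% interval from -0.79 to 0.059 and a limma adjusted p of 1. The exact permutation p of the difference in mean log2(FPKM + 1) was 0.1 for HMGCS1, 0.2 for SQLE and 0.1 for LSS. The smallest that 2 libraries against 3 can give is 0.1. With Puberty 2 kept, 4 of 7 were lower on the log2(FPKM + 1) scale, the median was -0.08, against 0.19 for all genes, of which 32.3% were lower, and HMGCS1 turned to a log2 fold change of 1.65 (standard error 1.40). By mean FPKM 6 of 7 were then lower, since LSS (17.7 to 15.8) and DHCR7 (8.78 to 7.89) had log2 fold changes above 0 but lower means at postpuberty. In that comparison the stages overlapped for all 7 genes, while they did not overlap for 7.32% of all genes. Without Puberty 2, the 3 tested markers of the choroid plexus also had lower mean FPKM at postpuberty than at puberty. TTR went from 3924 ± 5189 FPKM (SD, n = 2) to 269.1 ± 393.3 (SD, n = 3), KL from 4.65 to 0.44 and CLIC6 from 3.26 to 0.25. Whether choroid plexus tissue has a part in the difference of the 7 genes was not tested.

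Between prepuberty and postpuberty, which does not involve Puberty 2 in its means, all 7 genes were lower at postpuberty, with log2 fold changes from -0.05 (LSS) to -0.32 (IDI1) and a median of -0.21. Of all genes 37.8% were lower and the median was 0.048. IDI1 went from 15.7 ± 1.90 to 12.6 ± 3.07 FPKM (SD, n = 3 each), with an exact permutation p of 0.3, and FDPS from 31.5 ± 8.92 to 26.0 ± 8.50 FPKM, with an exact permutation p of 0.5. The stages overlapped for all 7 genes, while for 4.57% of all genes they did not. Prepuberty 1 set much of this difference: without it 5 of 7 genes were lower, the median was -0.07, and HMGCS1 and LSS changed direction (0.14 and 0.19). The mean FPKM was lowest at postpuberty for 7 of 7 genes without Puberty 2 and for 6 of 7 with it, and the sum of the 7 genes was 221.9 ± 58.9 FPKM at prepuberty (SD, n = 3), 190.8 ± 28.4 at postpuberty (SD, n = 3) and, at puberty, 249.0 ± 21.2 without Puberty 2 (SD, n = 2) but 199.3 ± 87.5 with it (SD, n = 3), below the prepuberty mean. The comparisons share their stages, so the low postpuberty values enter both of these counts. In whole tissue, fewer cells of a kind and less RNA per cell cannot be told apart.

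**Figure D4:**
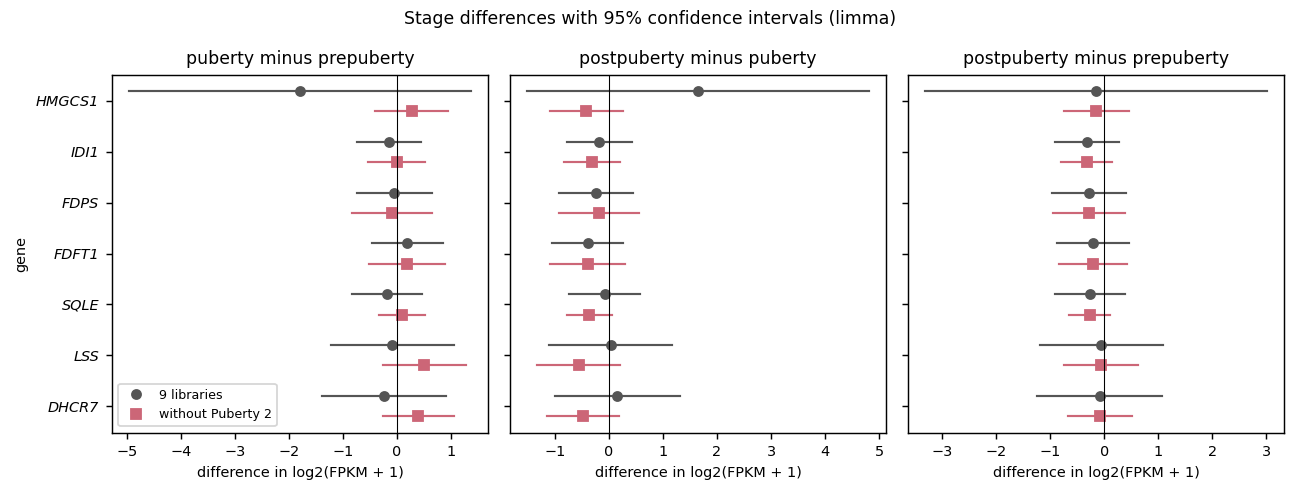
limma differences in log2(FPKM + 1) between stages (horizontal axes) with 95% confidence intervals for the 7 genes, with all 9 libraries (grey circles) and without Puberty 2 (red squares). All intervals include 0, the interval of HMGCS1 with 9 libraries is the widest (-4.96 to 1.37 for puberty against prepuberty), and without Puberty 2 all 7 genes lie below 0 for postpuberty against puberty.

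Since much of the brain's cholesterol goes into myelin, the 7 genes were set against 12 myelin genes, among them MBP, MOG, MAG and CNP, whose mean log2(FPKM + 1) was the myelin level of a library. Over the 8 libraries without Puberty 2, r with the myelin level was 0.54 for LSS, 0.37 for HMGCS1, 0.20 for IDI1, 0.16 for SQLE, -0.04 for FDPS, -0.06 for DHCR7 and -0.21 for FDFT1. The median was 0.16, against 0.032 over the 14226 tested genes outside the myelin list. None of the 7 passed: for LSS the exact permutation p was 0.17 (adjusted 0.40) for r and 0.33 (adjusted 0.57) for a rho of 0.40. Among all genes 374 (2.63%) passed by r at an adjusted p below 0.05 and 23.3% at an unadjusted p below 0.05. By rho, 0 genes passed after adjustment. A positive r with an unadjusted p below 0.05 was found for 8.15% of genes. Over all 9 libraries the median r of the 7 genes was -0.01, with 0 of 7 below an unadjusted p of 0.05, against 9.95% of all genes and 0.0141% after adjustment. The median also moved with the scaling over the 8 libraries. With upper quartile scaling it was 0.31, with 6 of 7 above 0, against 0.11 for all genes. Quantile normalization gave 0.11, with 4 of 7 above 0, against 0.054 for all genes.

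The relation to myelin changed with single ewes. Postpuberty 1 had the highest myelin level of the 9 libraries, 8.46 on the log2 scale, and the lowest level of the 8 for SQLE, DHCR7, FDFT1 and FDPS. Without it, r was above 0 for all 7 genes, from 0.19 for DHCR7 to 0.76 for FDPS, with a median of 0.64. Leaving out Prepuberty 1 instead, the library with the next highest myelin level and the highest level of 4 of the 7 genes, gave a median of -0.12. Without both of these libraries, the 2 farthest from the median myelin level, it was 0.45. After subtraction of stage means it was 0.44 over the 8 libraries, LSS reaching 0.89. Over the tested genes outside the myelin list, the medians in these settings were -0.043, 0, -0.12 and 0.028, in the same order. The summed level of the 12 myelin genes ran from 6826 FPKM in Prepuberty 2 to 15350 in Prepuberty 1 at prepuberty, from 10039 to 12199 at puberty and from 7179 to 15246 at postpuberty.

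**Figure D5:**
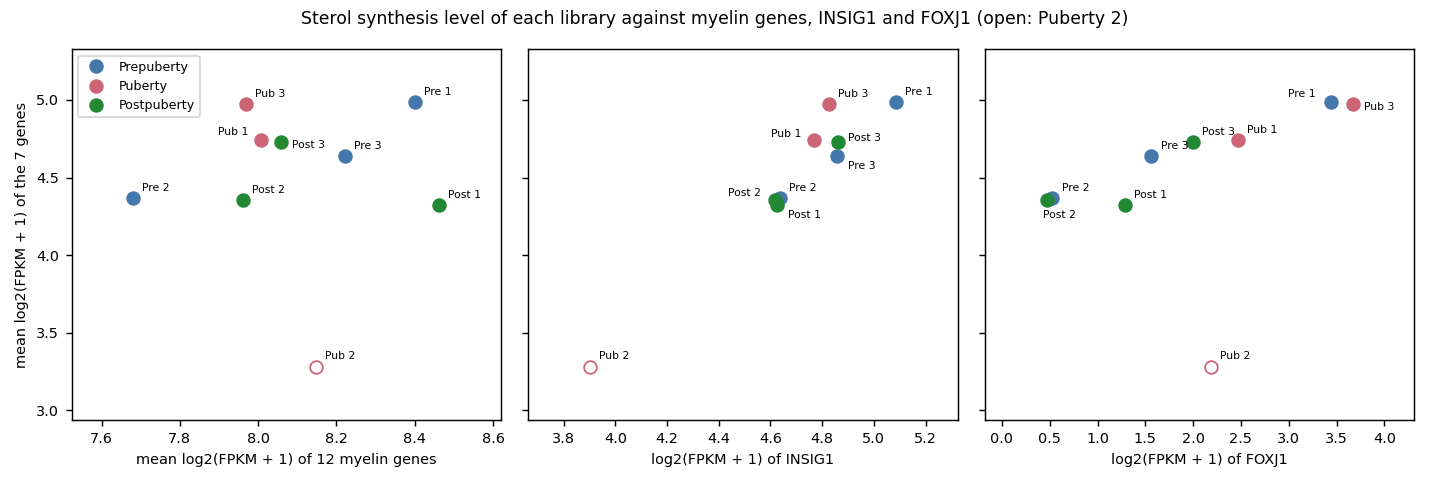
Mean log2(FPKM + 1) of the 7 genes (vertical axis) against the mean of 12 myelin genes (left), INSIG1 (middle) and FOXJ1 (right) in each library, coloured by stage, with Puberty 2 open. The left panel shows Postpuberty 1 with the highest myelin level (8.46) and a low level of the 7 genes; in the middle and right panels the 8 filled points lie along a rising line (r 0.87 and 0.95, FOXJ1 having been chosen for its r), with Puberty 2 low on both axes for INSIG1 and far below the line for FOXJ1.

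Other genes of sterol synthesis went with the mean of the 7 genes when Puberty 2 was left out. Over the 8 libraries, 13 of 13 matched genes of that list had an r above 0 with this mean, the median r was 0.85 and 8 of 13 reached 0.7, against 4.36% of 14231 other tested genes and a median of -0.0078. MSMO1, a demethylase of sterol intermediates, had an r of 0.93 with the 7 genes, and ACAT2, which joins acetyl-CoA units ahead of HMGCS1, had 0.87. The least alike was TM7SF2, with an r of 0.48. With all 9 libraries r was 0.25 for MSMO1, 0.0076 for ACAT2 and -0.02 for TM7SF2. The list then had a median r of 0.82 with 10 of 13 genes above 0 and 8 at 0.7 or more, against a median of 0.42 over all other genes, of which 27.0% reached 0.7. As for the 7 genes, none of these 13 was called in any contrast. Without Puberty 2, 12 of 13 were lower at postpuberty than at puberty, with a median log2 fold change of -0.30, against 0.026 for all genes, of which 44.9% were lower. As these genes went with the 7 over the same libraries, this count is not independent of theirs. With all 9 libraries 7 of 13 were lower, with a median of -0.02, against 0.19 for all genes, of which 32.3% were lower. Without Puberty 2, ACAT2 had a log2 fold change of -0.44 in this comparison, with an unadjusted limma p of 0.049 and an adjusted p of 1.

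Genes of sterol sensing and uptake went with the 7 genes only in part, and their r depended on Puberty 2. INSIG1, which holds SREBP-2 back when sterols are plentiful and is itself a target of it, had an r of 0.87 with the mean of the 7 genes over 8 libraries and of 0.97 over 9. It stood at 33.0, 23.9 and 28.0 FPKM at prepuberty, 26.3, 13.9 and 27.4 FPKM at puberty, and 23.7, 23.5 and 28.0 FPKM at postpuberty, with Prepuberty 1 highest and Puberty 2 lowest. SREBF2, the gene of SREBP-2, had an r of -0.29 over the 8 libraries. Its level was 24.6, 44.5 and 43.8 FPKM at prepuberty, 41.2, 24.3 and 35.3 FPKM at puberty, and 26.2, 39.4 and 23.2 FPKM at postpuberty. It was thus low in Prepuberty 1, where the 7 genes were high, and also in Postpuberty 1, where they were low. Over the 11 matched genes of sensing and control the median r was -0.17, and NR1H2, a liver X receptor, had 0.30. Among the 11 of uptake and intracellular transport the median was 0.23, with 0.77 for NPC2 and 0.23 for NPC1, the pair that exports cholesterol from lysosomes, and -0.02 for LRP1, a receptor of apolipoprotein E. Over all 9 libraries the median was 0.62 for sensing and control, with 0.22 for SREBF2 and -0.55 for NR1H2. For uptake and intracellular transport it was 0.79 over 9 libraries, with 0.06 for NPC2, 0.42 for NPC1 and 0.86 for LRP1.

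Neighbouring pathways had lower median r with the 7 genes than the sterol synthesis list over the 8 libraries. In the isoprenoid branch, which uses the product of FDPS for other ends, the median r with their mean was -0.13 over 8 genes, with -0.32 for FNTA and 0.75 for FNTB, the subunits of farnesyltransferase, and 0.14 for DHDDS of dolichol synthesis. For 8 genes of fatty acid synthesis it was 0.60, with 0.73 for the desaturase SCD, 0.62 for ACLY, which supplies acetyl-CoA, and -0.23 for FADS2. In 6 genes of carriers, efflux and esters it was 0.031, with -0.10 for APOE, the main apolipoprotein of the brain, -0.39 for ABCG4 and 0.015 for ABCA1. With Puberty 2 included, the medians were 0.70 for the isoprenoid branch, 0.92 for fatty acid synthesis, above that of sterol synthesis, and 0.60 for carriers, efflux and esters. In these 9 libraries r was 0.82 for FNTA, 0.07 for FNTB and 0.80 for DHDDS. It was 0.92 for SCD, 0.91 for ACLY and 0.53 for FADS2, and -0.86 for APOE, 0.61 for ABCG4 and 0.84 for ABCA1. All 6 lists beside the 7 genes hold 57 tested genes, of which 0 were called in any contrast with 9 or 8 libraries.

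The 10 genes most like the mean of the 7 over the 8 libraries were, in order, DNAAF1, MAP2K7, RIBC2, AK7, HOXD3, HOATZ, FOXJ1, UCP2, FAM216B and CFAP52, with r from 0.96 to 0.94. FOXJ1 is the transcription factor of motile cilia, and DNAAF1, RIBC2, AK7, HOATZ and CFAP52 are known from cilia or flagella. Their levels were low, with means over the 8 libraries from 0.22 FPKM for DNAAF1 to 4.18 for FOXJ1. The filter for testing had used all 9 libraries. DNAAF1 passed it only through Puberty 2, at 0.97 FPKM, and was at most 0.48 FPKM in the 8 libraries of this ranking. FOXJ1 stood at 9.90, 0.43 and 1.96 FPKM at prepuberty, 4.54, 3.55 and 11.8 FPKM at puberty, and 1.44, 0.38 and 2.99 FPKM at postpuberty. Puberty 3 and Prepuberty 1 were highest, as they were for the 7 genes, which follows from choosing FOXJ1 by its r over these same libraries. Over all 9 libraries r with the 7 genes was 0.39 for FOXJ1 and -0.41 for DNAAF1 and UCP2 each, while MAP2K7, a kinase of the JNK cascade at 22.1 FPKM, had 0.99.

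Some lists of markers of other cells went with the 7 genes over the 8 libraries and others did not. For the choroid plexus, 3 of 5 marker genes were matched (TTR, KL and CLIC6), and their mean log2 level had an r of 0.77 with the mean of the 7 genes over 8 libraries and of 0.29 over 9. Their sum ran from 9.57 to 338.0 FPKM at prepuberty, from 255.4 to 7609 at puberty and from 37.0 to 725.2 at postpuberty, nearly all of it TTR, and KL was listed at 0 in Prepuberty 2, Prepuberty 3, Puberty 2 and Postpuberty 1. TTR was 7594 FPKM in Puberty 3, 723.2 in Postpuberty 3, 337.1 in Prepuberty 1 and 255.0 in Puberty 1, and the same 4 of the 8 libraries, in another order, had the highest means of the 7 genes. In Puberty 2, where that mean was lowest, TTR was 554.1 FPKM, the third highest of the 9 libraries. Over the same 8 libraries the r with the 7 genes was 0.57 for 8 microglia genes, 0.50 for 6 endothelial genes, 0.61 for the 7 hypothalamic genes tested, -0.02 for 8 astrocyte genes, -0.19 for 6 genes of oligodendrocyte precursors and -0.21 for 9 neuronal genes. With Puberty 2 included it was 0.22, 0.50, -0.06, 0.78, 0.51 and 0.44 in the same order. The part of these cells in the levels of the 7 genes was not tested.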

How the data were processed

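Poly-A RNA of 9 hypothalamus libraries, 1 per ewe, was sequenced by the authors, who trimmed reads with Trimmomatic, aligned them with HISAT2 to ARS-UI_Ramb_v3.0 and quantified transcripts with StringTie. The deposited values were FPKM per transcript for each library, although the table is named as counts, so read counts per gene and their precision are unknown and no count test was run. The mapped reads listed by the study were 19347227 for Puberty 2 and 20624219 to 23966519 for the others. Of 76684 protein-coding transcripts, 76682 were matched to a RefSeq gene of the same assembly and summed. Genes with a mean of at least 0.5 FPKM in a stage were compared with limma 3.58.1 in R 4.3.3 on log2(FPKM + 1), with a variance trend, stage as the only term and Benjamini-Hochberg adjustment over all genes. A fold change on this scale understates the change of low genes. Without Puberty 2 the filter left 14209 genes. In place of the edgeR test that the authors ran after RUVseq, limma was applied here with their thresholds. Correlations used exact permutation over all orders of the libraries (scipy 1.17.1), for the 14226 tested genes outside the myelin list. Scripts were tested on simulated data.

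The genes and lists were chosen with earlier results of these data known. Named genes were the 7 genes, any gene of the 6 other pathway lists that was called, the 3 genes of each list with the highest mean FPKM, and the 10 tested genes with the highest r with the mean of the 7. 10 of 148 listed genes had no symbol match and were not analysed here, and single values of some other listed genes are not reported here. For oligodendrocyte precursors, neurons, astrocytes, microglia, endothelium, choroid plexus, hypothalamus, myelin, pituitary and blood, marker lists were used; the r with the 7 genes over 8 libraries was -0.07 for 3 pituitary genes and 0.26 for HBB, the blood gene tested. Alternatives changed the pseudocount, filter, scaling, trend, weights, transcript and libraries. Agreement without Puberty 2 under other scalings or with a further library left out, and the r of the pathway lists over all 9 libraries, were added after seeing the data.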

Additional observations from a re-analysis of the deposited data

How the results depend on the processing

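The log2 fold changes of the 7 genes in 3 contrasts make 21 differences, and 19 alternatives each gave 399 further values. Of these, 357 kept their direction, 42 changed it and 0 passed the thresholds. The cause of the changes was not tested. With array weights, limma called 4 genes for puberty against prepuberty and 1 for postpuberty against puberty, and the following turned: for puberty against prepuberty HMGCS1 (0.36), SQLE (0.089), LSS (0.31), DHCR7 (0.21) and IDI1 (0.0014), for postpuberty against puberty HMGCS1 (-0.27), LSS (-0.51) and DHCR7 (-0.32), and for postpuberty against prepuberty HMGCS1 (0.090). Quantile normalization turned LSS (0.063) and DHCR7 (0.010) for puberty against prepuberty, and LSS (-0.16) and DHCR7 (-0.17) for postpuberty against puberty. Scaling to equal totals turned FDFT1 (-0.030) for puberty against prepuberty and SQLE (0.098) for postpuberty against puberty. Upper quartile scaling turned FDPS (0.011) for puberty against prepuberty and LSS (-0.074) for postpuberty against puberty. With the leading transcript of each gene alone, IDI1 (0.30) and FDPS (0.47) turned for postpuberty against puberty, and DHCR7 (0.19) for postpuberty against prepuberty. The median log2 fold change of all genes was -0.14 for puberty against prepuberty and 0.19 for postpuberty against puberty, -0.28 and 0.30 with equal totals, and 0.0091 and -0.0063 with quantile normalization.

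Leaving out each library in turn moved puberty against prepuberty from -2.89 to 0.27 for HMGCS1, -0.37 to 0.096 for SQLE, -0.43 to 0.50 for LSS, -0.79 to 0.40 for DHCR7 and -0.19 to 0.17 for FDPS. It moved postpuberty against puberty from -0.42 to 2.74 for HMGCS1, -0.36 to 0.10 for SQLE, -0.56 to 0.35 for LSS, -0.48 to 0.71 for DHCR7, -0.33 to 0.010 for IDI1 and -0.45 to 0.023 for FDPS. It moved postpuberty against prepuberty from -0.29 to 0.14 for HMGCS1, -0.39 to 0.19 for LSS and -0.44 to 0.072 for FDFT1. The median r of the pairs over 9 libraries ranged from 0.43 to 0.77 in this way, the highest without Postpuberty 2.

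Replicate numbers were shared by the stages, but of 9 same-numbered pairs only 2 had a correlation of their deviations above 0.1 (range -0.31 to 0.51), so the numbers were not taken to pair the ewes. With the replicate block, 0 genes were called in each contrast.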
